A study of Mus musculus with 16 samples.

Results

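Immortalized preadipocytes of wild type C57Bl6/J mice, fat cell precursors grown as a line, were compared at day 0 of differentiation after 16 h with interleukin-13 (IL-13, given as the agent Il13 in the labels) or with no agent. The comparison took the 4 IL-13 libraries and the 4 untreated libraries of day 0, 8 of the 16 libraries of the series, which were chosen by their labels and not by any measured value. By their labels both groups share strain, genotype and cell line and differ in the agent alone. The numbers in the library names run through the untreated group and then the IL-13 group. Any effect of that order cannot be told apart from the agent. Polyadenylated RNA had been sequenced from 2 ug of total RNA per library with a stranded mRNA kit, and the deposited total counts per gene were tested. Levels are CPM (counts scaled to library size), given per library or as mean ± SD over n = 4 libraries, and a positive log2 fold change means higher with IL-13, with its standard error (SE). Whether the 4 libraries of a group stem from different cultures is not stated in the labels, and the p-values therefore rest on a spread between libraries that may be technical only. The labels also do not say how the line was immortalized or whether it is 1 clone, and the results describe this line only.

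IL-13 is a cytokine of type 2 immunity, made by innate lymphoid cells and T helper cells during allergy and worm infection. It binds Il13ra1, which pairs with Il4ra, and the Janus kinases on these chains phosphorylate the transcription factor Stat6, which then enters the nucleus and activates genes. Il13ra2 binds IL-13 with high affinity without using this pathway and is known as a decoy, while Socs1 and Cish are feedback inhibitors that STAT factors switch on. In fibroblasts and other stromal cells IL-13 is known for inducing eotaxin and collagen, and in adipose tissue precursors stand next to the lymphoid cells and eosinophils that type 2 cytokines come from.

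The 8 libraries held between 15285304 and 17816152 counts and between 15447 and 16201 genes with a count. The first principal component (67.5% of variance) separated the groups. No pair of libraries of a group agreed within sampling noise. The cells carried transcripts of stromal progenitors: on the deposited length-scaled TPM values, Pdgfrb stood at 372 ± 14.6 TPM in untreated cells. This and the next genes were chosen as known markers. Of the genes that define mature fat cells, Adipoq had 6 and 13 counts over the 4 untreated and the 4 IL-13 libraries, Plin1 had 8 and 28, and Lep had none in either group. Cidec had 5 and 13. Other fat cell genes were expressed: Fabp4, Pparg and Cebpa stood at 89.3 ± 7.26, 78.4 ± 2.34 and 32.6 ± 1.26 TPM in untreated cells. Cd34 and Dcn, which are often used to define adipose progenitors, stood at 0.359 ± 0.0943 and 1.40 ± 0.222 TPM in untreated cells. An index of nuclear RNA, the mean log2 CPM of 27 nuclear-retained RNAs and transcripts of RNA-processing factors, differed between the groups without overlap. It was 6.51, 6.20, 5.90 and 6.41 in untreated libraries 1 to 4, and 5.77, 5.73, 5.63 and 5.72 in IL-13 libraries 1 to 4. Untreated libraries 1 and 4 had the highest index, and counts that moved by over 1.5 times without them are given both ways.

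Of 12274 genes tested, 2912 were higher and 2969 lower with IL-13 at an adjusted p under 0.05 (edgeR's quasi-likelihood test, Benjamini-Hochberg over all genes), that is 23.7% and 24.2%, or 47.9% in all. Most of these differences were small: 91.2% of the called genes changed less than 2-fold, and 253 genes (2.06%) were at least 2-fold higher and 267 (2.18%) at least 2-fold lower. The largest increases exceeded the largest falls, with 88 genes (0.717%) at least 4-fold higher against 28 (0.228%) at least 4-fold lower. The libraries of the 2 groups did not overlap for 2530 genes that were higher (20.6%) and 2474 that were lower (20.2%). Genes named below for their fold change were chosen among these, so groups that stand apart are no separate support for them. The split between higher and lower rests on the scaling, since with scaling by total count alone the median over all genes moved, in log2 fold change, from -0.01 to -0.13 and the calls became 1682 higher and 4523 lower. With untreated libraries 1 and 4 left out the counts were 1811 higher and 1674 lower of 12416 tested, with 268 and 178 past 2-fold. Of the 253 genes higher by 2-fold or more, 242 were still called higher without those libraries, and of the 267 lower, 217 were still called lower.

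**Figure D1:**
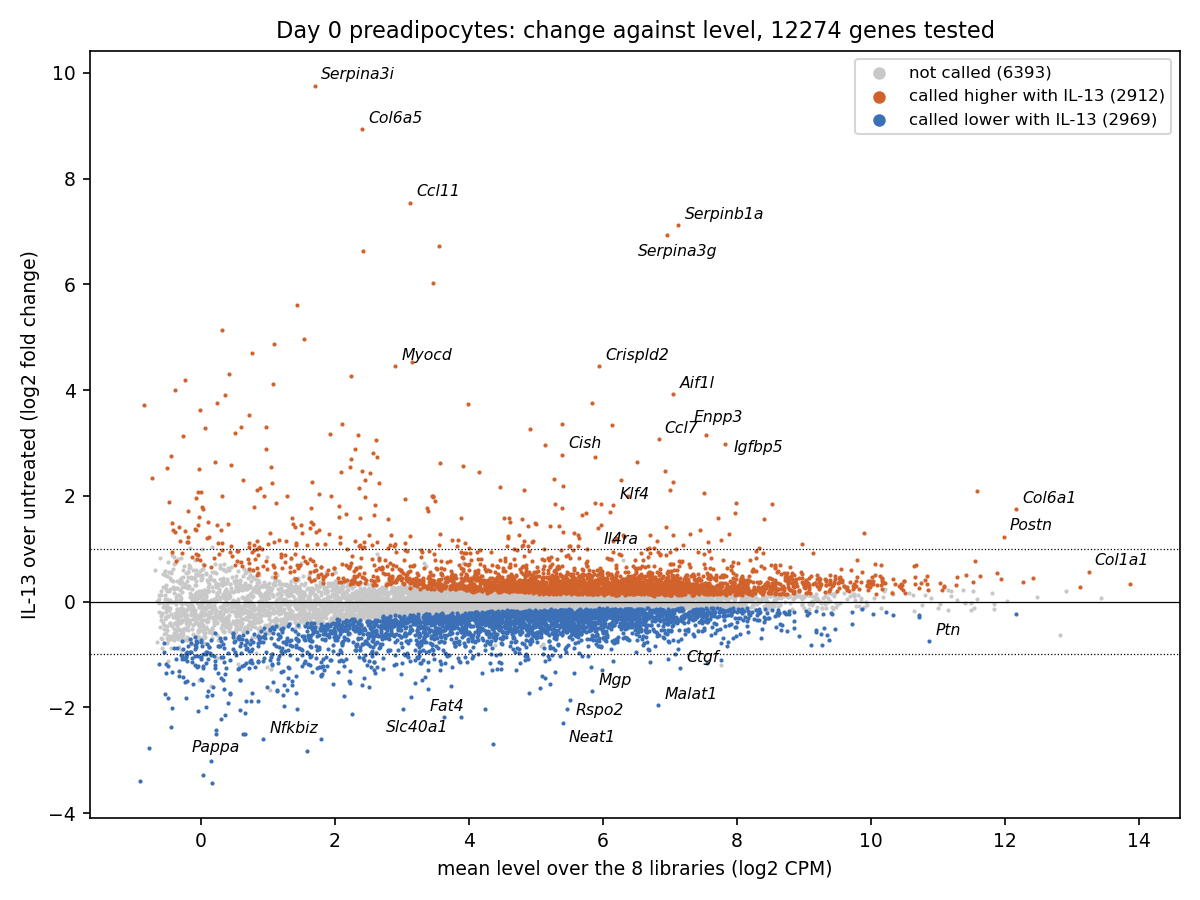
Each point is 1 of 12274 genes at day 0, with the mean level over the 8 libraries (log2 CPM) on the x axis and the log2 fold change of IL-13 over untreated on the y axis. Orange points were called higher (2912), blue points lower (2969) and grey points were not called, dotted lines mark 2-fold, and the largest increases reach further from 0 than the largest falls.

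The genes with the largest increases were silent or nearly silent in untreated cells. Serpina3i (ENSMUSG00000079014, chromosome 12, 104263122 to 104269372), a mouse relative of the protease inhibitor alpha-1-antichymotrypsin, had no count in any untreated library and 8.19, 5.54, 5.60 and 6.64 CPM in IL-13 libraries 1 to 4. Against the limit of 3 counts over the group this is at least 151-fold higher. Col6a5 (ENSMUSG00000091345, chromosome 9, 105856078 to 105960643), a chain of type VI collagen, had 0, 0, 0 and 0.0556 CPM in untreated libraries 1 to 4 and 12.2, 9.47, 7.22 and 14 CPM in IL-13 libraries 1 to 4. Every IL-13 library was far above every untreated one, and the adjusted p was 7.23e-09. Ccl11 (ENSMUSG00000020676, chromosome 11, 82057823 to 82062955), eotaxin, which draws in eosinophils, stood at 0.0531, 0.0631, 0.118 and 0.111 CPM in untreated libraries 1 to 4 and 17.5, 15.7, 16.2 and 20.6 CPM in IL-13 libraries 1 to 4. Serpinb1a (ENSMUSG00000044734, chromosome 13, 32842092 to 32851185), which blocks proteases of neutrophils, had 1.86, 2.78, 2 and 1.39 CPM in untreated libraries 1 to 4 and 301, 258, 269 and 281 CPM in IL-13 libraries 1 to 4. IL-13 library 1 was the highest for both Serpina3i and Serpinb1a, and no untreated library came near the lowest IL-13 library for any of these genes.

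Further down the same order stood genes of varied function. Rasgrf2, an exchange factor for Ras family GTPases, rose from 0.101 ± 0.0316 CPM to 10.7 ± 1.11 CPM, and Diras2, a small GTPase, from 0.741 ± 0.211 CPM to 17.1 ± 1.03 CPM. Crispld2, a secreted glycoprotein, was at 4.94, 5.87, 4.76 and 5.96 CPM in untreated libraries 1 to 4 and 116, 116, 116 and 124 CPM in IL-13 libraries 1 to 4. Its IL-13 libraries lay within a narrow range (log2 fold change 4.45, SE 0.07). Tmem26, a membrane protein used as a marker of beige fat precursors, rose from 12.7 ± 1.6 CPM to 128 ± 7.53 CPM, and Sprr2a2, a small proline-rich protein of epithelial barriers, from 0.776 ± 0.297 CPM to 7.86 ± 0.429 CPM. Of the 50-base stretches of Sprr2a2, 96.5% also occur in other genes, so its counts cannot be told apart from those of its relatives.

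Because Stat6 is the factor that IL-13 activates, the promoters of genes with higher levels were searched for its known letters, TTC and GAA with any 4 bases between them, which read the same on both strands. RefSeq windows (GRCm38.p6) from 250 bases before to 50 bases after the transcript start were available for 9535 of the 12274 genes tested. A gene counted as a match when any of its windows held the motif. That was so for 10 of 63 genes with a window (15.9%) higher by 4-fold or more. It was so for 18 of 171 (10.5%) higher by 2-fold or more, and for 11 of 186 (5.91%) lower by 2-fold or more. Of all genes tested that had a window, 6.46% held it. Counted by window and not by gene, it was in 6.95% of all 32851 windows of that length. The spacing of other STAT factors, with 3 bases between TTC and GAA, also the same on both strands, was in 17.5%, 9.94% and 10.2% of the same 3 sets and in 8.22% of genes tested. In the 200 bases before the start alone, the Stat6 spacing was in 12.7%, 7.6% and 5.38% of the 3 sets against 4.16% of genes tested, and the other spacing in 7.94%, 5.26% and 8.06% against 5.52%. For the other spacing these shares stand for 5 of 63 genes higher by 4-fold and 15 of 186 lower by 2-fold. In the whole window they stand for 11 and 19 of the same genes. A window could hold both spacings. These are matches of letters, which show neither binding nor a cause. The 250 bases before the start are shown for the first 5 genes by fold change, among those named here, that hold the motif, to let its place in each promoter be seen. Sequences run 5′ to 3′ toward the gene's start, and capitals mark each match with 4 bases between.
Serpina3i, chr12:104262872-104263121, plus strand: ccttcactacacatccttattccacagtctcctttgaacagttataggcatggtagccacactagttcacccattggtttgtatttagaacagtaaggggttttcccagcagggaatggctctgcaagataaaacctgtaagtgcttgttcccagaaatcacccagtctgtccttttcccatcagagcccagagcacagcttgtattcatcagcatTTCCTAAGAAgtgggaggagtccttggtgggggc
Diras2, chr13:52530837-52531086, minus strand: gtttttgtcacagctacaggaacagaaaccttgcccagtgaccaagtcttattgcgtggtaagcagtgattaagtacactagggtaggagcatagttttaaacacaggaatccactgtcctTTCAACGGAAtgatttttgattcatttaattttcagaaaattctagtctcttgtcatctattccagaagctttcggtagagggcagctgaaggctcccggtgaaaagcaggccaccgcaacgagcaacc
Sprr2a2, chr3:92250397-92250646, plus strand: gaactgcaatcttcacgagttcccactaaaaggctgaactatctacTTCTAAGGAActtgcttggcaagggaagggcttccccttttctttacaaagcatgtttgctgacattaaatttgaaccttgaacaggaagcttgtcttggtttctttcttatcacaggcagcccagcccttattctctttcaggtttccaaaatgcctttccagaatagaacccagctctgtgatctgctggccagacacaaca
Tmem26, chr10:68723496-68723745, plus strand: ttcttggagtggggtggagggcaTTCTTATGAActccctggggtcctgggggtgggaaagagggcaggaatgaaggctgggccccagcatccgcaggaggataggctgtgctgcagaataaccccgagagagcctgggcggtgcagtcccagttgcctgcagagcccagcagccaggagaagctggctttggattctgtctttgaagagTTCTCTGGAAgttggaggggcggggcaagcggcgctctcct
Vdr, chr15:97908297-97908546, minus strand: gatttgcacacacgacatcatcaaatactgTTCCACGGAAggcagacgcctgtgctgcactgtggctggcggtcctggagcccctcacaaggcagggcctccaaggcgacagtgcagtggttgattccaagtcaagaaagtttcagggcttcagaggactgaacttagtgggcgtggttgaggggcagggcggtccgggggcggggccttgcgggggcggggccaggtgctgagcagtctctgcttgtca
The match began 34 bases before the start in Serpina3i, 129 in Diras2, 204 in Sprr2a2 and 220 in Vdr, and Tmem26 held a pair of matches, 227 and 41 bases before the start. Vdr, the vitamin D receptor, stood at 16.4 to 17.4 CPM in the untreated libraries and 43.3 to 49.8 CPM in the IL-13 libraries.

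The receptor chain that IL-13 and IL-4 share rose in cells given IL-13. Il4ra (ENSMUSG00000030748, chromosome 7, 125552120 to 125579474) was at 31, 33.3, 36 and 33.3 CPM in untreated libraries 1 to 4 and 89.6, 83.5, 90.6 and 87.6 CPM in IL-13 libraries 1 to 4, so the groups were well apart (log2 fold change 1.40, SE 0.06, adjusted p = 4.08e-11). The partner chain Il13ra1 fell slightly, from 11.9 ± 1.19 CPM to 9.06 ± 0.472 CPM (adjusted p = 0.00397). For the decoy Il13ra2, the untreated libraries together held 0 counts and those with IL-13 held 30, at least 10.9-fold higher. Of the kinases, Jak2 rose from 81.8 ± 6.1 CPM to 97.2 ± 3.63 CPM, Jak3 fell from 2.03 ± 0.151 CPM to 1.05 ± 0.0492 CPM, and the other 2 did not pass the test. Stat6 itself was at 172 to 185 CPM in the untreated libraries and 176 to 191 CPM in the IL-13 libraries, with overlapping groups (adjusted p = 0.541). Of the 7 tested ligands, receptors, kinases and Stat6, 2 were higher and 2 lower. That is 28.6% each, near the 23.7% and 24.2% over all genes. The fall of Il13ra1 was not called without untreated libraries 1 and 4 (adjusted p = 0.0633), nor the rise of Jak2 with scaling by total count (adjusted p = 0.0947).

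The feedback inhibitors went both ways. Cish (ENSMUSG00000032578, chromosome 9, 107296026 to 107302784), which blocks STAT docking on cytokine receptors, was at 10.2, 10.2, 10.1 and 12.2 CPM in untreated libraries 1 to 4 and 69.8, 79.3, 73 and 71.6 CPM in IL-13 libraries 1 to 4. No value of one group lay near the other (log2 fold change 2.78, SE 0.07, adjusted p = 2.03e-13). Socs1, which inhibits the Janus kinases, rose from 0.636 ± 0.167 CPM to 2.77 ± 0.574 CPM, while Socs2, known as a target of Stat5 and a brake on growth hormone signalling, fell from 21 ± 2.2 CPM to 12.6 ± 1.22 CPM. Socs3 did not pass the test (7.71 CPM to 6.64 CPM, adjusted p = 0.109). Of the 21 tested STAT factors and feedback genes 3 were higher and 10 lower, with a median log2 fold change of -0.17 against -0.01 for all genes. Stat3, which carries signals of the IL-6 family, was among the lower ones with a log2 fold change of -0.22. The number called depended on the libraries kept, and smaller groups also give fewer calls. Called lower were 6 without IL-13 library 2 (median -0.18) or untreated library 4 (-0.13), and 5 without IL-13 library 3 (-0.15). Without untreated libraries 1 and 4 together 2 were called lower (median -0.12), and Stat3 had an adjusted p of 0.174.

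Receptors for other cytokines changed in both directions. Of 39 tested, 13 were higher and 9 lower, and the median was close to that of all genes (0.00). These counts were 10 and 6 without untreated libraries 1 and 4, and 9 and 11 with scaling by total count. Il1rl1, the receptor of the alarmin IL-33, rose from 66.8 ± 1.7 CPM to 178 ± 5.08 CPM, and Il6ra and its signalling partner Il6st (gp130) rose from 11.6 ± 1.46 CPM to 34.5 ± 3.89 CPM and from 342 ± 15.7 CPM to 541 ± 12.5 CPM. Osmr and Lifr, which pair with gp130 for oncostatin M and leukaemia inhibitory factor, fell from 61.6 ± 4 CPM to 36.4 ± 0.976 CPM and from 96.3 ± 17.8 CPM to 44.2 ± 9.31 CPM. The shared beta chains of the receptors for IL-3, IL-5 and GM-CSF, Csf2rb and Csf2rb2, were low and rose to 4.72 and 3.78 CPM, with 12.3% and 18.9% of their 50-base stretches found in other genes. Il17rd, a membrane inhibitor of fibroblast growth factor signalling, fell by 1.03 on the log2 scale (SE 0.07). Il1rn, the IL-1 receptor antagonist, fell from 0.787 CPM to 0.111 CPM. Among 12 tested cytokine ligands 1 was higher and 4 were lower (0 and 2 without untreated libraries 1 and 4). The share lower was 33.3%, against 24.2% over all genes. Csf1, the macrophage growth factor, fell from 328 ± 14.5 CPM to 239.7 ± 7.38 CPM.

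Genes known to respond to IL-4 or IL-13 in other tissues were only in part detected here. Of 39 such genes, written from textbook knowledge of macrophages, epithelium and fibroblasts with results of these data known, 12 passed the expression filter. Of those, 7 were higher and 4 lower, a median log2 fold change of 1.01, and the filter itself favours genes that are high in 1 group. Bcl6, a transcriptional repressor, and Tgm2, a transglutaminase, both chosen after their values were seen, were among the 7, with log2 fold changes of 0.78 and 1.70. The macrophage genes Arg1 and Chil3, chosen in the same way, had 0 counts in the untreated libraries and 3 each in the IL-13 libraries, at the limit of detection. Egr2, an early response factor that IL-4 raises in macrophages, fell from 13.2 ± 1.4 CPM to 6.84 ± 0.999 CPM (not called in a fit of all 16 libraries, adjusted p = 0.155), and Vcam1, the adhesion molecule that binds eosinophils and lymphocytes, from 317 ± 11.8 CPM to 257 ± 10.3 CPM.

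**Figure D2:**
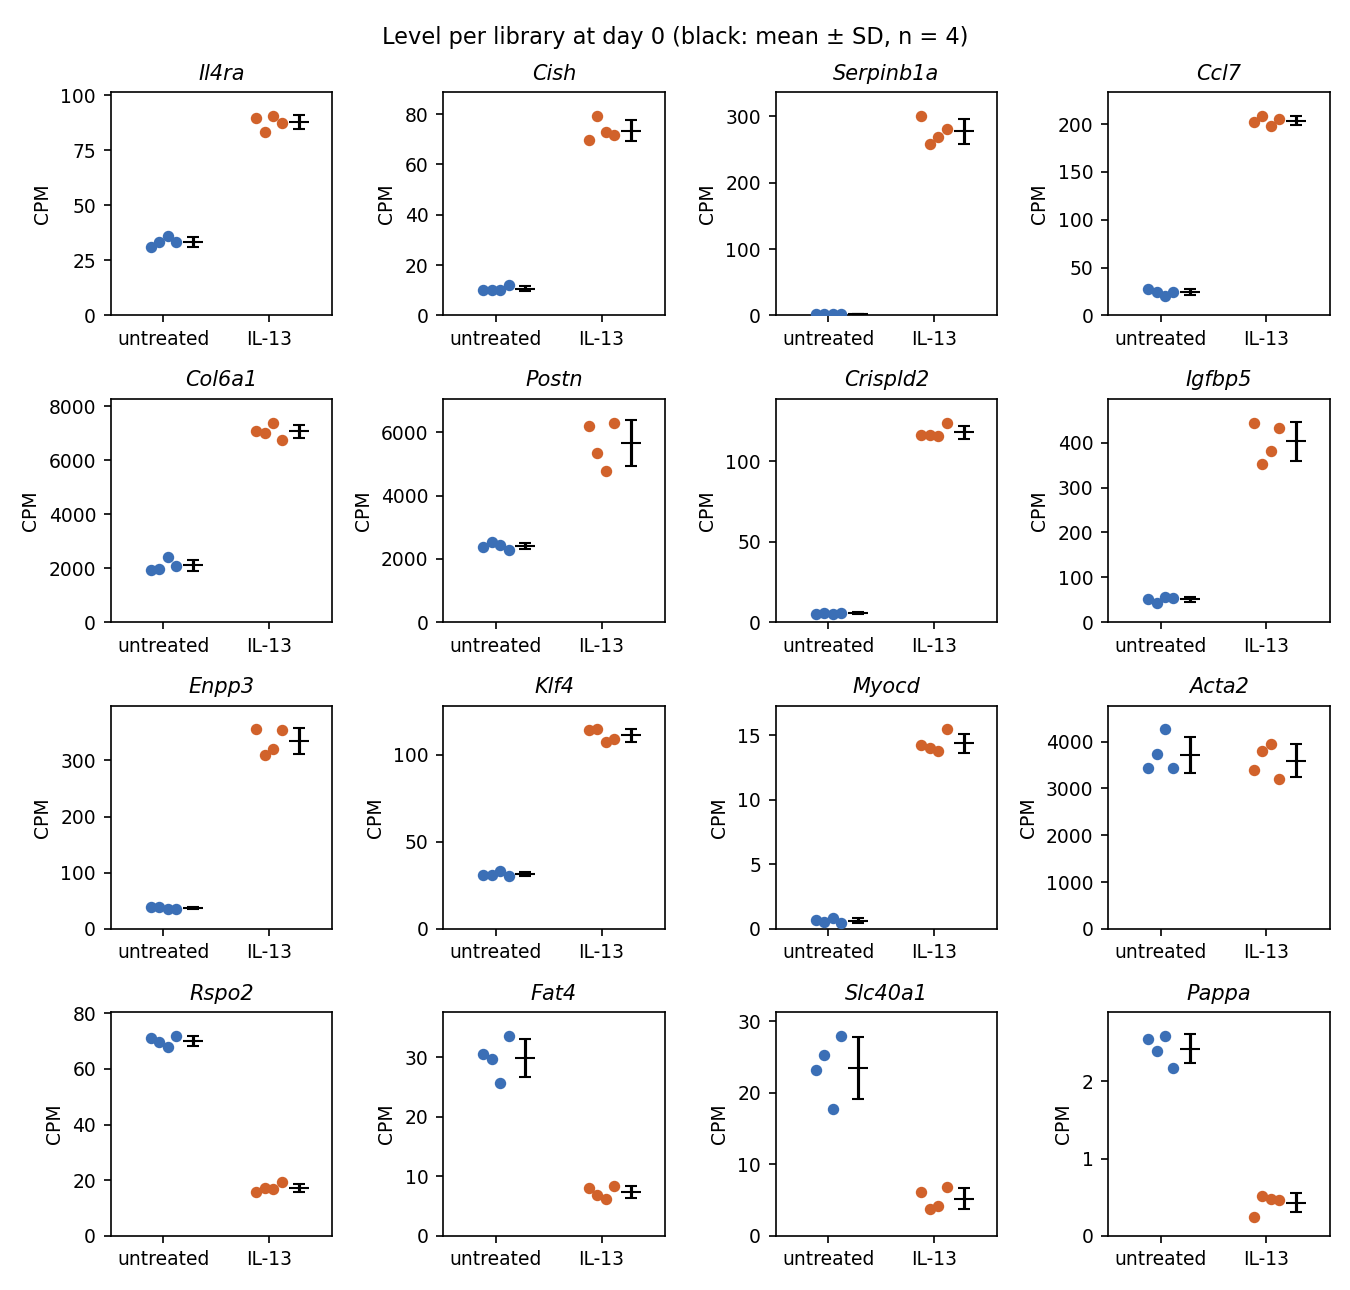
Each panel plots 1 gene's CPM in the 4 untreated (blue) and 4 IL-13 (orange) libraries of day 0, with the mean and SD in black and the y axis from 0. The groups overlap for Acta2, smooth muscle actin, and are apart in the other panels, Myocd, its activator, among them.

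Serpins, which trap and inactivate proteases, had the largest median of the lists described. Of 19 tested, 14 were higher and 2 lower, with a median log2 fold change of 1.99, and 11 were at least 2-fold higher. The larger increases lay in 2 families. In the secreted Serpina3 family, neighbours on chromosome 12, Serpina3g, Serpina3n, Serpina3c and Serpina3f reached 247, 23.5, 22 and 5.26 CPM from 2.03, 0.223, 0.33 and 0.104 CPM. In the intracellular Serpinb family on chromosome 13, Serpinb6a rose from 233 ± 19.6 CPM to 439.5 ± 21.9 CPM, and its relative Serpinb8 on chromosome 1 fell from 32.7 CPM to 26.5 CPM. The 46 serpins together amounted to 2383 to 2712 CPM per untreated library and 3698 to 3811 CPM per IL-13 library. Of the 50-base stretches of Serpina3g, Serpina3i and Serpina3f, 15.5%, 15.9% and 10.6% also occur in other genes, so a part of their counts could belong to relatives.

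Chemokine ligands followed a like pattern of a few large increases. Of 11 tested, 4 were higher, all at least 2-fold, and 1 was lower. The 4 were the CC ligands Ccl11, Ccl2, Ccl7 and Ccl8, which attract eosinophils and monocytes. Ccl7 was at 27.6, 24.4, 19.8 and 24.8 CPM in untreated libraries 1 to 4 and 202, 208, 198 and 205 CPM in IL-13 libraries 1 to 4, with every IL-13 library above every untreated one. Ccl8 rose from 0.483 CPM to 2.44 CPM (log2 fold change 2.30, SE 0.36). Cxcl12, the factor that holds haematopoietic cells in bone marrow, was the 1 that fell, from 4965 ± 146 CPM to 4226 ± 129 CPM (adjusted p = 0.0102, and 0.055 without untreated libraries 1 and 4). Ackr3, a scavenger receptor for Cxcl12, rose in the same cells from 1.31 ± 0.353 CPM to 7.17 ± 1.1 CPM.

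In the complement system, C3, the protein on which its pathways converge, rose from 1.02 ± 0.187 CPM to 9.12 ± 2.17 CPM, and Masp1, a protease of the lectin pathway, from 120 ± 6.23 CPM to 261 ± 4.11 CPM. The proteases of the classical pathway, C1ra and C1s1, fell from 88.8 ± 5.67 CPM to 52.6 ± 5.59 CPM and from 135 ± 19.4 CPM to 71.2 ± 10.6 CPM, although 50.8% and 21.8% of their 50-base stretches occur in other genes. Of the 27 tested genes of antigen presentation and complement, 9 were higher and 7 lower (3 lower without untreated libraries 1 and 4).

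Enzymes of lipid mediators changed in several steps. Of 20 tested genes of prostaglandins and leukotrienes 11 were higher and 5 lower (median log2 fold change 0.24), and of 21 genes of endocannabinoids and lysophosphatidic acid 10 were higher and 5 lower (0.14). Ltc4s, which makes leukotriene C4, rose from 3.42 ± 0.572 CPM to 13.1 ± 2.4 CPM, and Ptger4, a receptor for prostaglandin E2, from 4.66 ± 0.662 CPM to 16 ± 0.808 CPM. Ptges and Ptgis, the synthases of prostaglandin E2 and prostacyclin, rose by 0.78 and 0.70 on the log2 scale, while the inducible cyclooxygenase Ptgs2 fell from 7.87 ± 1.11 CPM to 4.83 ± 0.821 CPM. Daglb, which makes the endocannabinoid 2-arachidonoylglycerol, and Mgll, which breaks it down, both rose, from 25 ± 0.795 CPM to 157 ± 8.41 CPM and from 0.751 ± 0.204 CPM to 6.82 ± 0.368 CPM. Enpp3 (ENSMUSG00000019989, chromosome 10, 24772406 to 24842823), an enzyme of the cell surface that splits nucleotides, was at 38.6, 39.6, 35.9 and 35.8 CPM in untreated libraries 1 to 4 and 355, 309.6, 319.6 and 354 CPM in IL-13 libraries 1 to 4. Its libraries stood in 2 separate ranges (log2 fold change 3.16, SE 0.06, adjusted p = 1.23e-14). Plpp3, which inactivates lysophosphatidic acid outside the cell, rose from 97.9 ± 4.05 CPM to 251 ± 19.4 CPM, and the receptor Lpar1 fell from 97 ± 0.501 CPM to 60.5 ± 6.66 CPM. Leaving out untreated libraries 1 and 4, or untreated library 2, left 3 prostaglandin and leukotriene genes lower. Exons of Ltc4s and Daglb overlap genes on the other strand over 26.4% and 24.1% of their bases, and use of strand in counting is not given in any source used here. The same kind of overlap covers 20.1% to 29.3% of the exon bases of Serpinb6a, Spry1, Ctgf, Dusp5, Cebpb and Fbn1, so their counts may hold reads of the partner gene. Stretches also found in other genes make up 33.1% of Rplp0.

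The retinal dehydrogenases, which make retinoic acid, were higher. Of 25 tested retinoid genes 13 were higher, 6 of them at least 2-fold, and 4 were lower. Aldh1a3 and Aldh1a2 rose from 3.31 ± 0.762 CPM to 20.5 ± 0.771 CPM and from 0.71 ± 0.303 CPM to 3.35 ± 0.513 CPM, and Aldh1a7, a related aldehyde dehydrogenase, from 15.4 ± 0.665 CPM to 103 ± 4.92 CPM. Rdh10, which supplies their substrate, fell by 0.91 on the log2 scale. Without untreated libraries 1 and 4, 8 of the 25 were higher and 2 lower, and leaving out untreated library 1 or IL-13 library 3 alone also left 2 lower. Rarb, a textbook target of retinoic acid chosen after its value was seen, had a log2 fold change of 1.08 (adjusted p = 1.25e-06).

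Genes of arginine, proline and polyamine metabolism were mostly higher, 16 of 25 tested against 1 lower, with a median log2 fold change of 0.34. With the nuclear index as covariate 3 were higher and none lower, with a median of 0.14. Slc7a2, the transporter that takes up arginine in cells of type 2 immunity, rose from 12.8 ± 1.08 CPM to 64.2 ± 4.25 CPM. Azin2, which keeps the polyamine enzyme ornithine decarboxylase from being degraded, rose from 12.1 ± 2.79 CPM to 36.5 ± 1.96 CPM, and Srm, spermidine synthase, from 65.1 ± 9.89 CPM to 113 ± 11.2 CPM. In purine breakdown, Gda, which makes xanthine from guanine, and Xdh, which oxidizes xanthine to uric acid, rose from 0.123 ± 0.111 CPM to 1.67 ± 0.459 CPM and from 109 ± 6.96 CPM to 397 ± 18.9 CPM, while the related oxidase Aox1 fell from 5.9 ± 0.615 CPM to 2.76 ± 0.424 CPM. Among amino acid transporters, Slc38a2, which carries glutamine, fell from 784 ± 71.3 CPM to 446 ± 22.4 CPM and Slc6a6, which carries taurine, from 294 ± 18.1 CPM to 165 ± 5.77 CPM. Pcx, pyruvate carboxylase, rose from 46.4 ± 5.08 CPM to 112 ± 5.45 CPM, the largest rise among 47 tested genes of the citric acid cycle and branched-chain amino acid breakdown.

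Collagen chains divided. Of 30 tested, 11 were higher and 10 lower, with a median log2 fold change of 0.04 (-0.08 with scaling by total count), and 6 were lower without untreated libraries 1 and 4. Type VI collagen, which forms beaded filaments around fat cells, held some of the largest differences in CPM of all genes: Col6a1 (ENSMUSG00000001119, chromosome 10, 76708792 to 76726168) was at 1947, 1988, 2403 and 2073 CPM in untreated libraries 1 to 4 and 7080, 7024, 7391 and 6764 CPM in IL-13 libraries 1 to 4. Untreated library 3 was the highest of its group and still below every IL-13 library (log2 fold change 1.75, SE 0.08, adjusted p = 2.07e-10). Col6a2, beside it on chromosome 10, rose from 1171 ± 128 CPM to 4966 ± 247 CPM, and Col6a3, which completes the classical molecule and was chosen after its value was seen, did not pass the test (4179 ± 137 CPM to 4194 ± 150.5 CPM, adjusted p = 0.954). On the deposited TPM scale, which divides by length, Col6a1 went from 1715 ± 120.5 to 5030 ± 102 TPM, Col6a2 from 502 ± 39.8 to 1859 ± 26.7 TPM and Col6a3 from 1251 ± 63 to 1095 ± 74.6 TPM. These TPM values lack the scaling between libraries used for CPM and were not tested. The fibril chains Col1a1 and Col1a2 had log2 fold changes of 0.57, SE 0.12, and 0.27, SE 0.08, Col1a2 with an adjusted p of 0.0528 without untreated library 1, and Col24a1 and Col14a1, both low in untreated cells, rose to 3.48 and 10.8 CPM. Col8a1, a short-chain collagen of vessel walls and basement membranes, fell from 45.3 ± 1.58 CPM to 13.7 ± 0.714 CPM, and Col12a1 and Col11a1 from 703 ± 32.8 CPM to 397 ± 39.8 CPM and from 10.1 ± 1.03 CPM to 4.47 ± 0.342 CPM.

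The machinery that folds, trims and crosslinks collagen was mostly higher. Of 28 tested genes 21 were higher and 2 lower (median log2 fold change 0.36). Pcolce2, which speeds the removal of the procollagen C-end, rose from 7.93 ± 1.54 CPM to 107 ± 1.93 CPM, Bmp1, the protease that removes it, from 238 ± 9.56 CPM to 363 ± 26.7 CPM, and Adamts14, which removes the N-end, from 26 ± 3.13 CPM to 128 ± 6.66 CPM. The crosslinking oxidases Loxl3 and Lox rose from 171 ± 10.3 CPM to 508 ± 19.7 CPM and from 2223 ± 103 CPM to 3792 ± 118 CPM. P4hb, a subunit of prolyl hydroxylase, and the collagen chaperone Serpinh1 had log2 fold changes of 0.47 and 0.43. P4ha3, another prolyl hydroxylase subunit, was 1 of the 2 that fell (-0.70). The same counts were 20 and 1 without untreated libraries 1 and 4, and 8 and 1 with the nuclear index as covariate (median 0.23).

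The wider secretory pathway was higher in 62 of 80 tested genes and lower in 5, with a median log2 fold change of 0.31. Creb3l1, a membrane-bound transcription factor known for activating genes of collagen secretion, rose the most, from 119 ± 16.6 CPM to 383 ± 43.7 CPM. Chaperones of the endoplasmic reticulum followed with smaller changes, Calr by 0.68, Manf by 0.67 and Hsp90b1 by 0.32 on the log2 scale, and Spcs3, a subunit of the signal peptidase, fell from 119.9 ± 8.7 CPM to 80.1 ± 4.46 CPM. When untreated libraries 1 and 4 were left out, 57 were higher and 1 was lower, and with the nuclear index as covariate 19 were higher and 1 lower.

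Among other matrix proteins, 18 of 54 tested glycoproteins were higher and 17 lower, or 13 and 22 with scaling by total count. Postn (ENSMUSG00000027750, chromosome 3, 54361109 to 54391037), periostin, a known target of IL-13 in airway epithelium, was at 2388, 2528, 2425 and 2290 CPM in untreated libraries 1 to 4 and 6181, 5354, 4771 and 6300 CPM in IL-13 libraries 1 to 4. IL-13 libraries 1 and 4 were the highest, and none fell near the untreated range (log2 fold change 1.23, SE 0.09, adjusted p = 4.20e-08). Fbn1, the core of elastic microfibrils, rose from 548 ± 32.9 CPM to 1348 ± 28.2 CPM. Mgp, an inhibitor of calcification, fell from 87 ± 4.44 CPM to 26.8 ± 2.13 CPM, and Ctgf, a target of TGF-beta and of the Hippo pathway, from 200.3 ± 26 CPM to 83.6 ± 4.43 CPM. Of the proteoglycans, Prelp rose from 2.92 ± 0.234 CPM to 9.04 ± 0.145 CPM, and Aspn, Vcan and the already low Dcn fell by 0.94, 0.49 and 1.88 on the log2 scale. Genes of hyaluronan were lower in 6 of 12 tested, among them the synthase Has2 (-0.59) and the depolymerase Cemip (-0.77), and higher in 2. The share lower was 50%, against 24.2% over all genes. Adamtsl3, an ADAMTS-like matrix protein, fell from 49.8 ± 5.73 CPM to 16 ± 1.35 CPM, and the protease inhibitor Timp2 rose from 806 ± 53.8 CPM to 1324 ± 6.68 CPM.

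Growth factor signalling showed pairs that went opposite ways. Of 44 tested receptor tyrosine kinases and ligands 11 were higher and 16 lower (10 lower without untreated libraries 1 and 4). Angpt2, which antagonizes the vascular receptor Tie2, rose from 4.77 ± 0.702 CPM to 17.7 ± 2.3 CPM, while its agonist Angpt1 fell from 13.3 ± 1.1 CPM to 3.77 ± 0.373 CPM. Flt1, a receptor of vascular endothelial growth factor, rose from 0.22 ± 0.0863 CPM to 3.87 ± 0.781 CPM, and Nrp2, a co-receptor, fell from 296 ± 2.86 CPM to 138 ± 3.46 CPM. In the insulin-like growth factor system 3 of 20 were higher and 9 lower (4 lower without those libraries). Igfbp5 (ENSMUSG00000026185, chromosome 1, 72857932 to 72874884), a binding protein that is deposited in matrix, was at 51.8, 42.8, 55 and 54.3 CPM in untreated libraries 1 to 4 and 445, 352, 381 and 434 CPM in IL-13 libraries 1 to 4. The lowest IL-13 library was several times the highest untreated one (log2 fold change 2.98, SE 0.09). Igfbp6 rose from 24.9 ± 4.96 CPM to 77.9 ± 8.18 CPM, whereas Igf1 fell from 12.6 ± 1.2 CPM to 7.43 ± 0.514 CPM and Pappa, a protease that frees IGF from binding proteins, was at 2.55, 2.4, 2.59 and 2.17 CPM in untreated libraries 1 to 4 and 0.244, 0.515, 0.481 and 0.461 CPM in IL-13 libraries 1 to 4. For Pappa each IL-13 library was below each untreated library (adjusted p = 1.23e-06).

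Many early response genes and feedback genes of the ERK pathway were lower. Of 31 tested AP-1, Egr and related early response factors and dual-specificity phosphatases 17 were lower and 5 higher, a median log2 fold change of -0.28. Spry1 and Dusp6, inhibitors that ERK signalling switches on, fell from 19.6 ± 1.41 CPM to 6.47 ± 1.04 CPM and from 7.63 ± 0.632 CPM to 2.79 ± 0.363 CPM, and Fos and Dusp5 fell by 1.08 and 0.97 on the log2 scale. Jun, the partner of Fos in AP-1, rose from 33.7 ± 2.79 CPM to 91.8 ± 4.33 CPM, Atf3 from 2.48 ± 0.298 CPM to 5.83 ± 0.574 CPM and Jund from 10.1 ± 0.946 CPM to 19.4 ± 2.67 CPM. Over 52.6% of its exon bases Jund overlaps a gene on the other strand. Nr4a1, an early response nuclear receptor, fell from 5.55 ± 0.412 CPM to 1.88 ± 0.347 CPM. Of the 31, 11 were lower without untreated library 1, untreated library 4 or IL-13 library 3, 9 without untreated libraries 1 and 4 together, and 7 in a fit of all 16 libraries. Fos and Nr4a1 were not called in that last fit (adjusted p = 0.215 and 0.0537).

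In the Wnt pathway 15 of 38 tested genes were lower and 6 higher (12 and 4 without untreated libraries 1 and 4). Rspo2 (ENSMUSG00000051920, chromosome 15, 43020794 to 43170826), which strengthens Wnt signals at the cell surface, was at 71, 69.5, 68 and 71.8 CPM in untreated libraries 1 to 4 and 15.8, 17, 16.7 and 19.3 CPM in IL-13 libraries 1 to 4. The untreated values lay within a few CPM of each other and far above all IL-13 values (log2 fold change -2.03, SE 0.07, adjusted p = 2.15e-12). Lef1, a transcription factor of the pathway, and the ligand Wnt16 fell from 3.84 ± 0.255 CPM to 1.15 ± 0.226 CPM and from 9.07 ± 0.667 CPM to 3.73 ± 0.567 CPM. Sfrp1, a secreted inhibitor, the receptor Fzd1 and the repressor Tcf7l1 rose from 117 ± 2.75 CPM to 225 ± 4.5 CPM, from 183 ± 1.05 CPM to 306 ± 17.6 CPM and from 71.8 ± 5.75 CPM to 144 ± 10.7 CPM. Of 57 TGF-beta and BMP genes 12 were higher and 23 lower, with Gdf10 rising from 1.87 ± 0.282 CPM to 8.35 ± 0.531 CPM and the BMP inhibitor Grem1 falling from 273 ± 12.1 CPM to 158 ± 14.4 CPM. In the Notch pathway 4 of 17 tested genes were higher and 8 lower, with a median log2 fold change of -0.17. Of the lower ones 3 were at least 2-fold lower. The counts were 4 and 5 without untreated libraries 1 and 4, and 1 and 2 with the nuclear index as covariate. The nuclear partner Rbpj rose from 215 ± 2.09 CPM to 369 ± 13.5 CPM and its target Hes1 from 9.02 ± 1.13 CPM to 13.8 ± 0.667 CPM. The coactivator Maml3 and the modifier Lfng fell by 1.19 and 1.15 on the log2 scale.

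Transcription factors with large increases included some of other lineages. Klf4 (ENSMUSG00000003032, chromosome 4, 55527143 to 55532466), a Kruppel-like factor that IL-4 and IL-13 raise in macrophages, was at 31.2, 31.1, 33.3 and 30.2 CPM in untreated libraries 1 to 4 and 114, 115, 107 and 109 CPM in IL-13 libraries 1 to 4. Its groups were narrow and apart (log2 fold change 1.82, SE 0.05). Elf3, known from epithelium, rose from 0.113 ± 0.0872 CPM to 2.39 ± 0.608 CPM and stayed low in absolute level. Hlf, a PAR bZIP factor, rose from 0.455 ± 0.155 CPM to 9.02 ± 1.96 CPM, and Nfil3, a repressor that binds the same sites, from 14.1 ± 1.39 CPM to 41.4 ± 1.64 CPM. Runx1 and Mef2c fell from 23.1 ± 0.679 CPM to 11.7 ± 1.04 CPM and from 16 ± 1.46 CPM to 7.33 ± 0.836 CPM. Of the 75 tested members of this mixed list 16 were higher and 26 lower. Hox and other positional factors were lower in 13 of 34 and higher in 3, but without untreated libraries 1 and 4 lower in 3 and higher in none. Of the Hox list 1 was higher without untreated library 1, untreated library 4 or IL-13 library 4.

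Myocd (ENSMUSG00000020542, chromosome 11, 65176561 to 65269989), myocardin, the co-factor that drives smooth muscle genes with Srf, was at 0.69, 0.568, 0.882 and 0.445 CPM in untreated libraries 1 to 4 and 14.2, 14, 13.8 and 15.5 CPM in IL-13 libraries 1 to 4. All IL-13 values exceeded all untreated values (log2 fold change 4.46, SE 0.15, adjusted p = 4.03e-12). Of 36 tested contractile genes, which include its textbook targets, 6 were higher and 9 lower, with a median of -0.07. The counts were 4 higher and 8 lower without untreated libraries 1 and 4, and 10 were higher without untreated library 3. Scaling by total count gave 4 higher and 20 lower (median -0.18), and the nuclear index as covariate 2 higher and 12 lower (-0.25). Acta2 was at 3433, 3738, 4261 and 3430 CPM in untreated libraries 1 to 4 and 3396, 3810, 3956 and 3195 CPM in IL-13 libraries 1 to 4, with overlapping groups (adjusted p = 0.67), and of the alternatives only the nuclear RNA covariate called it lower (log2 fold change -0.37, adjusted p = 0.0429). Tpm1 and Myh10 fell from 962 ± 19.3 CPM to 717 ± 13.3 CPM and from 736 ± 33.2 CPM to 482 ± 16.1 CPM, and Mylk, the kinase of myosin light chain, rose from 36.5 ± 0.742 CPM to 50.1 ± 3.81 CPM. Of 17 tested actin and membrane-cytoskeleton linkers and keratins 6 were higher and 2 lower, with a median of -0.01. Scaling by total count gave 4 higher and 7 lower, and the nuclear index as covariate 2 higher and 3 lower. Ezr, ezrin, which ties actin to the membrane, rose from 15.3 ± 0.249 CPM to 69.8 ± 4.83 CPM, Aif1l, an actin-bundling protein, from 16.4 ± 2.05 CPM to 248 ± 11.8 CPM, and the simple keratins Krt18 and Krt19 from 0.462 ± 0.131 CPM to 1.87 ± 0.604 CPM and from 1.46 ± 0.411 CPM to 3.99 ± 1.18 CPM.

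Surface receptors, adhesion molecules and channels changed in both directions. Of 44 tested adhesion genes 9 were higher (5 without IL-13 library 1, 6 without untreated libraries 1 and 4) and 19 lower. Itga6, the laminin-binding integrin chain, rose from 10.6 ± 1.46 CPM to 46 ± 1.25 CPM. Fat4 (ENSMUSG00000046743, chromosome 3, 38886940 to 39011985), a giant protocadherin, was at 30.5, 29.8, 25.8 and 33.6 CPM in untreated libraries 1 to 4 and 8.07, 6.76, 6.2 and 8.29 CPM in IL-13 libraries 1 to 4. The IL-13 values of Fat4 lay below all untreated values. The related Fat1 fell from 821 ± 20.4 CPM to 497 ± 20.3 CPM and Itgb8, which activates TGF-beta, from 1.84 ± 0.515 CPM to 0.413 ± 0.193 CPM. Of 54 G protein-coupled receptors and cyclases 19 were higher, 10 of them at least 2-fold, and 13 were lower (8 without untreated libraries 1 and 4). Hrh1, the histamine H1 receptor, rose from 0.286 ± 0.0277 CPM to 1.84 ± 0.282 CPM, Adora2b, an adenosine receptor, from 4.4 ± 0.317 CPM to 17.6 ± 1.34 CPM, and S1pr3, a sphingosine-1-phosphate receptor, from 92.6 ± 7.59 CPM to 223 ± 11.9 CPM, while Adcyap1r1, the receptor of the peptide PACAP, fell from 19.7 ± 1.42 CPM to 4.35 ± 1.26 CPM. Ion channels were lower in 20 of 50 and higher in 7, with the potassium channel Kcnn3 rising from 0.0728 ± 0.0562 CPM to 1.44 ± 0.175 CPM and the sodium channel Scn3a falling from 2.62 ± 0.544 CPM to 0.707 ± 0.151 CPM. Among guidance molecules, Plxna4 and Sema3f rose from 5.7 ± 0.364 CPM to 54.7 ± 4.62 CPM and from 22 ± 1.67 CPM to 59.5 ± 4.07 CPM and Epha4 fell from 2.77 ± 0.322 CPM to 0.895 ± 0.236 CPM, within a list of 44 with 10 higher and 17 lower.

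Of 25 tested genes of iron handling 10 were higher and 6 lower. Without untreated libraries 1 and 4 these counts were 6 and 4, with scaling by total count 6 and 8, and with the nuclear index as covariate 3 and 2. Slc40a1 (ENSMUSG00000025993, chromosome 1, 45908068 to 45926523), ferroportin, the exporter, was at 23.2, 25.3, 17.7 and 27.9 CPM in untreated libraries 1 to 4 and 6.11, 3.74, 4.09 and 6.78 CPM in IL-13 libraries 1 to 4. Untreated library 3 was the lowest of its group and still above every IL-13 library (log2 fold change -2.18, SE 0.19, adjusted p = 6.33e-06). The ferritin heavy chain Fth1 rose from 1250 ± 158 CPM to 2007 ± 146 CPM and the iron reductase Steap3 from 134 ± 12.7 CPM to 301 ± 8.27 CPM, and the mitochondrial importer Slc25a37 fell from 28.2 ± 8.26 CPM to 11.6 ± 0.723 CPM. Of 43 cholesterol genes 9 were higher (4 without untreated library 1, without IL-13 library 3, or without untreated libraries 1 and 4) and 16 lower. The cholesterol exporter Abca1 and Mylip, both textbook targets of the liver X receptors, fell from 78.6 ± 6.21 CPM to 33.3 ± 5.82 CPM and from 25.8 ± 2.87 CPM to 14.1 ± 1.4 CPM, whereas Abcg1, another target, rose from 1.6 ± 0.235 CPM to 2.96 ± 0.386 CPM. Other single genes with large changes were St3gal1, a sialyltransferase (48 ± 1.08 CPM to 207 ± 10.6 CPM), Smpd3, a sphingomyelinase (4.36 ± 0.41 CPM to 25.9 ± 1.19 CPM), and Sod3, an extracellular superoxide dismutase (2.19 ± 0.231 CPM to 8.64 ± 0.718 CPM).

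Regulators of fat cell formation went both ways, with 7 of 28 tested higher and 7 lower, shares close to the 23.7% and 24.2% over all genes. Pparg (ENSMUSG00000000440, chromosome 6, 115360951 to 115490399), the master regulator, was at 64.4, 64, 66.8 and 63.6 CPM in untreated libraries 1 to 4 and 98, 97.1, 99.7 and 87 CPM in IL-13 libraries 1 to 4. The lowest IL-13 library, number 4, was above the highest untreated one (log2 fold change 0.56, SE 0.05, adjusted p = 9.66e-07). Cebpb, which acts early, rose from 3.94 ± 0.287 CPM to 6.2 ± 1.05 CPM, while its late partner Cebpa fell from 24 ± 1.08 CPM to 16.9 ± 0.777 CPM and the precursor factor Ebf2 from 59.5 ± 3.49 CPM to 45.4 ± 4.51 CPM. Lpl, lipoprotein lipase, fell from 340.3 ± 12.8 CPM to 270.4 ± 8.84 CPM, and Fabp4, a Pparg target, did not pass the test (112 CPM to 105 CPM, adjusted p = 0.176). Pnpla2 and Lipe, the lipases of fat droplets, rose from 20.2 ± 2.82 CPM to 39.4 ± 4.16 CPM and from 6.87 ± 1.22 CPM to 11.2 ± 0.19 CPM.

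Genes of NF-kB, interferon and stress responses included several large falls. Nfkbiz, an atypical inhibitor of NF-kB, fell from 2.97 ± 0.873 CPM to 0.485 ± 0.167 CPM, and the kinase Map3k8 from 1.08 CPM to 0.381 CPM, within a list of 36 with 8 higher and 11 lower. These counts were 5 and 6 without untreated libraries 1 and 4, and Map3k8 had an adjusted p of 0.0736. Of 57 interferon-stimulated genes 21 were lower (12 without those libraries) and 4 higher (8 without untreated library 3). Ifit3 fell from 16.5 ± 1.38 CPM to 6.73 ± 1.65 CPM (51.2% of its 50-base stretches occur in other genes), and Samhd1, which depletes nucleotides in infected cells, rose from 137 ± 5.43 CPM to 334 ± 13.8 CPM. Of 16 tested genes of the glucocorticoid receptor and its textbook targets 5 were higher and 8 lower. These counts were 3 and 6 without untreated libraries 1 and 4, and 3 and 2 with the nuclear index as covariate. The glucocorticoid targets Tsc22d3 and Pdk4 fell from 27.5 ± 2.15 CPM to 17.5 ± 3.14 CPM and from 44.4 ± 2.25 CPM to 24.3 ± 1.71 CPM. Of 52 CDK inhibitors, D-type cyclins and p53 targets 26 were lower and 4 higher, with Trp53inp1 falling from 89.2 ± 14.2 CPM to 36.3 ± 6.19 CPM, Gadd45b from 14.1 ± 1.87 CPM to 6.42 ± 0.632 CPM and the cyclin Ccnd2 from 694 ± 16.8 CPM to 466 ± 16.9 CPM.

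**Figure D3:**
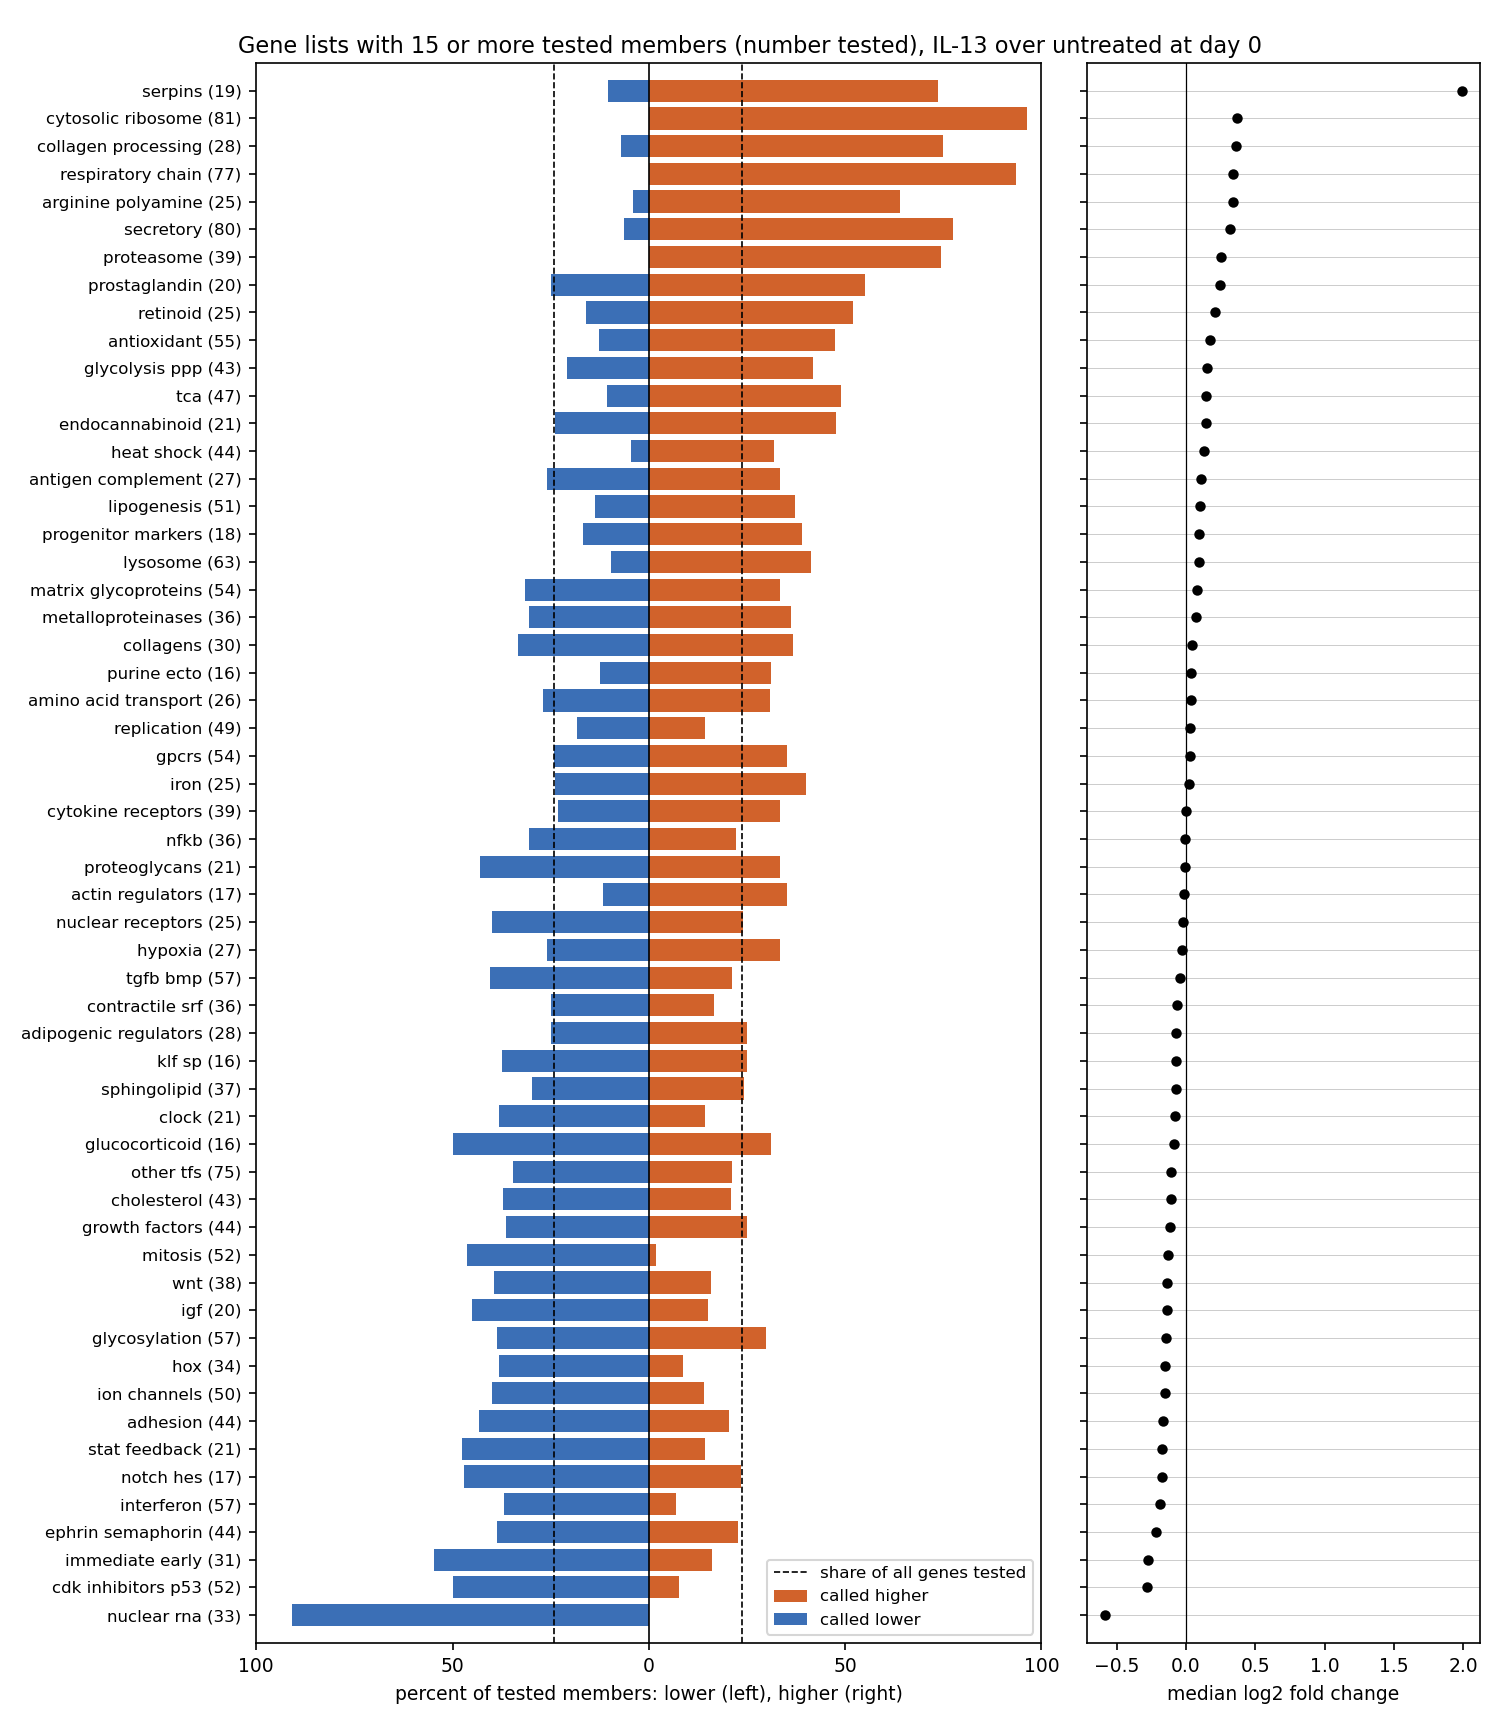
For each gene list with 15 or more tested members (number in brackets), bars give the percent of members called higher (orange, right) or lower (blue, left), and dots give the median log2 fold change. Dashed lines mark the shares over all genes tested, 23.7% higher and 24.2% lower, and serpins stand furthest to the right by median.

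In 10 of the 56 lists of that size other than markers of other cell types, both shares lay within 10 percentage points of those over all genes. Those described here were cytokine receptors, matrix glycoproteins, contractile genes, antigen presentation and complement, NF-kB genes and regulators of fat cell formation, so their counts do not set them apart from the genes at large.

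Several large gene groups moved together by small amounts. Of 81 cytosolic ribosomal protein genes 78 were higher and none lower, with a median log2 fold change of 0.37. Of 77 nuclear-encoded respiratory chain genes 72 were higher and none lower (0.34), and of 39 proteasome genes 29 were higher and none lower (0.25). Rplp0 rose from 3078 ± 417 CPM to 4468 ± 443 CPM, the ATP synthase subunit Atp5b from 1516 ± 111 CPM to 1927 ± 86.3 CPM and the proteasome subunit Psmb10 from 8.56 ± 0.696 CPM to 12.7 ± 1.18 CPM. Mitosis genes were lower in 24 of 52 and higher in 1, by a median of -0.13. Nuclear-retained RNAs and transcripts of RNA-processing factors were lower in 30 of 33. The 27 RNAs of the index are members of this list, so the list and the index are not separate observations. Malat1 was at 257, 173, 83.7 and 200 CPM in untreated libraries 1 to 4 and 52.7, 45, 30.6 and 55.8 CPM in IL-13 libraries 1 to 4, and Neat1 at 103, 56.1, 31.1 and 86.3 CPM in untreated libraries 1 to 4 and 15.3, 14, 10.6 and 16.2 CPM in IL-13 libraries 1 to 4. For both, untreated library 3 was the lowest of its group and closest to the IL-13 libraries, and the groups did not overlap. Without untreated libraries 1 and 4, Malat1 had a log2 fold change of -1.48 (adjusted p = 0.0599).

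The nuclear RNA index moved with these groups. Without untreated libraries 1 and 4, 49 of 81 ribosomal, 52 of 78 respiratory chain and 19 of 39 proteasome genes were higher, with medians of 0.27, 0.26 and 0.21. Of the genes of mitosis 13 were lower and none higher without those libraries. With the index as a covariate 0, 1 and 1 of the first 3 groups were higher, and of the genes of mitosis 1 was lower. In that fit 500 genes were called higher and 459 lower in all, and since the index did not overlap between the groups it and the treatment cannot be told apart.

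Fewer genes were called with the covariate in each of the 62 lists other than markers of other cell types. The counts below are to be read beside those over all genes in that fit, 500 higher and 459 lower of 12274 tested. Type 2 response genes then had 7 higher and 1 lower, serpins 11 and 1 (15 and 2 of 21 without untreated libraries 1 and 4), and chemokines 3 and 1. In cytokine signalling 2 STAT factors and feedback genes were higher and 1 lower, cytokine receptors had 7 and 3, cytokine ligands 0 and 2, antigen presentation and complement 3 and 2, NF-kB genes 2 and 3, and interferon-stimulated genes 2 and 5. In the matrix the counts were 7 and 5 for collagen chains, 11 and 8 for glycoproteins and 0 and 1 for hyaluronan. Among lipid mediators, the counts were 4 and 0 of 20 for prostaglandins and leukotrienes, and 5 and 4 of 21 for endocannabinoids and lysophosphatidic acid. Retinoids had 7 and 1 of 25, and cholesterol 2 and 8 of 43. In growth control and development, 3 early response genes were higher and 5 lower, with 9 and 9 for receptor tyrosine kinases and ligands, 2 and 2 for the insulin-like growth factor system, 4 and 6 for Wnt, 6 and 7 for TGF-beta and BMP, and 0 and 9 for CDK inhibitors and p53 targets. The mixed list of transcription factors had 9 higher and 10 lower, Hox and other positional factors 0 and 2, and regulators of fat cell formation 4 and 2. At the cell surface, the counts were 3 and 10 for adhesion, 11 and 3 for G protein-coupled receptors and cyclases, 2 and 5 for ion channels, and 6 and 7 for guidance molecules.

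Of the 195 genes named in the results that were called, 41 lost the call with the covariate. In signalling these were Il13ra1, Jak2, Jak3, Stat3, Lifr, Vcam1, Cxcl12, Ccl8, Map3k8, Igf1, Ptgis, Ptgs2, Hes1, Tsc22d3 and Csf1r. In matrix and secretion they were Col1a1, Col1a2, P4hb, Serpinh1, Hsp90b1, Serpinb8, Aspn, Vcan, Has2, C1s1 and Itgb8. The rest were Cebpb, Ebf2, Lpl, Lipe, Cd34, Krt18, Krt19, Plvap, Ramp2, Srm, Slc25a37, Atp5b, Psmb10, Rplp0 and Malat1.

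**Figure D4:**
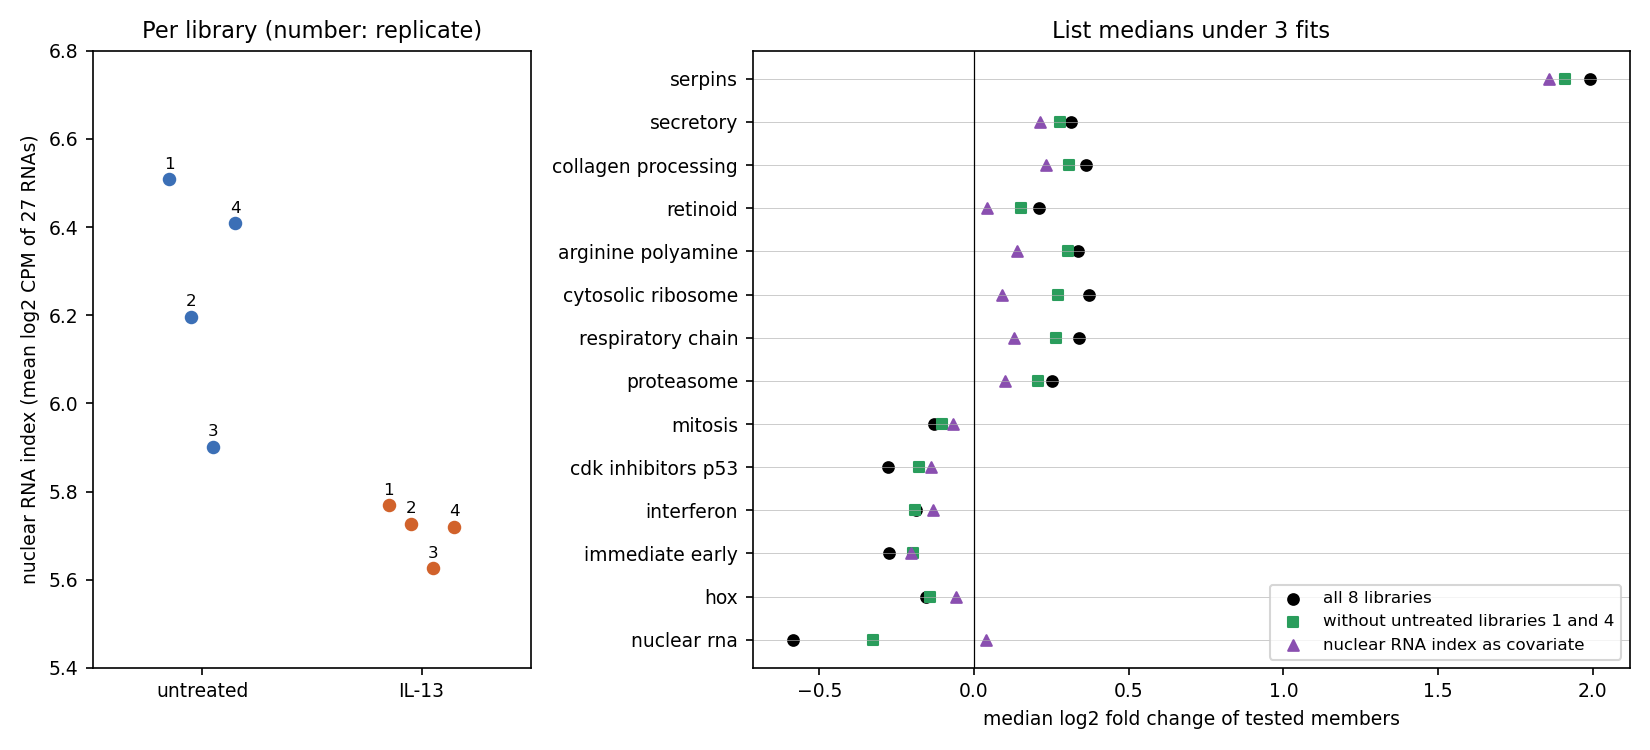
The left panel plots the nuclear RNA index (mean log2 CPM of 27 RNAs) of each library, from 5.90 to 6.51 in untreated and from 5.63 to 5.77 in IL-13 libraries. The right panel gives the median log2 fold change of 14 gene lists with all 8 libraries, without untreated libraries 1 and 4, and with the index as a covariate, and the ribosomal median goes from 0.37 to 0.27 and 0.09 while that of the serpins stays above 1.8.

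Apart from mural markers, and from Il1rl1 in the lymphocyte list, markers of other cell types summed to at most 29.9 CPM per list and library. Of 20 macrophage markers 5 passed the filter, with 1 higher and 2 lower, their sum was 16.2 to 19.5 CPM per untreated and 17.5 to 19.3 CPM per IL-13 library, and Adgre1, C1qa and Cd163 had no count. Csf1r, the receptor of Csf1, was the 1 that rose, from 1.65 ± 0.609 CPM to 4.55 ± 0.833 CPM. No marker of eosinophils, neutrophils, basophils or mast cells passed the filter, and their sum did not exceed 0.884 CPM in any library. Of lymphocyte markers 3 of 18 passed, Cd3e and Trac had no count, and the sum of the list, 68.8 to 72.7 CPM untreated and 177 to 189 CPM with IL-13, was nearly all Il1rl1. Of endothelial markers 7 of 18 passed, with Plvap and Ramp2 higher (Ramp2 with an adjusted p of 0.0568 without untreated libraries 1 and 4), while Cldn5 and Tie1 had no count and the sum was 10.5 to 13.2 CPM untreated and 13.2 to 14.3 CPM with IL-13. Stretches of 50 bases also found in other genes make up 30.7% of Ramp2, so a part of its counts could belong to another gene. Of 15 mesothelial and epithelial markers the 2 tested, Krt18 and Krt19, rose, their list summed to 1.86 to 2.82 and 4.77 to 6.98 CPM, and Krt14, Upk1b and Muc16 had no count. Mural markers amounted to 475 to 552 and 442 to 523 CPM, with 1 of 9 tested members higher and 2 lower. Of 15 nerve and muscle markers 4 were tested, 2 of them lower and 0 higher, and their list summed to 23.8 to 29.9 and 20.3 to 25.2 CPM. Without untreated libraries 1 and 4, no macrophage or mural marker was lower and 1 nerve or muscle marker was. Over all genes 23.7% were called higher and 24.2% lower, and each of these lists had few tested members. In these bulk libraries, fewer cells of a type and less RNA per cell cannot be told apart.

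Some genes were seen in 1 group only. Among genes without a count in any untreated library, Gja5, a connexin of gap junctions, had 71 counts with IL-13 over 4 libraries, which is higher by at least 25.9-fold, and Gpbar1, the bile acid receptor of the cell surface, had 43 (at least 15.7-fold). Tdo2, which breaks down tryptophan, had 42 (at least 15.3-fold). In the other direction the numbers were smaller: Acod1, which makes itaconate, had 18 counts in the untreated libraries and none with IL-13 (at least 5.49-fold lower), and Saa3, an acute-phase protein, had 10 (at least 3.05-fold lower). Copies made by amplification are not separate molecules, so these limits speak of counting error alone.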

How the data were processed

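Total RNA was purified on spin columns and libraries were made from 2 ug with a TruSeq Stranded mRNA kit, per the labels' protocols. The genome build was mm10, per the submitters' processing notes, while aligner, counter, annotation and use of strand are not given in any source used here. The deposited table holds total counts per gene as whole numbers, not normalized, and TPM values (length-normalized abundance, scaled by length and depth by the authors). The TPM values served to compare levels between genes and are given in both groups for type VI collagen chains. They entered no test. Libraries were grouped by their labels, and the 8 day 0 libraries (15285304 to 17816152 counts) were fitted on their own.

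Genes with too few counts were removed with filterByExpr (minimum count 10, minimum total 15), which left 12274 genes. Counts were scaled by trimmed mean of M values (TMM) and tested with edgeR 4.0.16 (quasi-likelihood, robust) in R 4.3.3, with Benjamini-Hochberg adjustment over all genes tested and a threshold of 0.05 on the adjusted p for a call. Each SE was obtained as log2 fold change over the root of edgeR's F. Tested on simulated data for this comparison, the fit recovered 92.9% of 99 genes changed 2-fold and 100% of 99 changed 4-fold, with 9 false calls among 12196 genes. Of the genes tested there, only these were changed, and no shift shared by many genes of a library was simulated. The simulation therefore does not speak to calls under 2-fold or to shifts that move with the nuclear RNA index. Alternatives were limma 3.58.1 (voom), DESeq2 1.42.0, other scalings and filters, a replicate block, all 16 libraries, left-out libraries and the nuclear RNA index as a covariate.

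The members and the 69 gene lists were chosen with earlier results of these data known. Genes were named by a rule: the 20 largest fold changes in each direction with no overlap between groups, the 12 largest CPM differences in each direction, the 10 highest totals among genes at 0 in 1 group, up to 3 rises, 3 falls and 3 highest levels per list, and every member of lists with 5 or fewer tested or called, plus a panel of IL-13 pathway genes. Shared sequence was the share of a gene's 50-base exon stretches found in another gene of GENCODE M21. Promoter windows came from RefSeq (GRCm38.p6). A few genes that this rule names are not reported here.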

Additional observations from a re-analysis of the deposited data

Results flagged for a closer look

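In 404 checks of a named gene's 4 libraries of a group, 18 held 1 library far from the other 3, with a gap to the nearest one that was past Dixon's 95% critical value. Chance alone flags about 1 in 20 such groups. Untreated library 3 stood apart for Aif1l (19.4 CPM), Il6ra (9.40 CPM) and Masp1 (129 CPM). Untreated library 1 stood apart for Angpt2 (3.72 CPM), Mgp (80.3 CPM) and Plvap (0.372 CPM), and untreated library 4 for Cish (12.2 CPM), Col6a5 (0.0556 CPM, from 1 count), Samhd1 (129 CPM) and Socs3 (9.02 CPM). Among IL-13 libraries, number 4 stood apart for Adora2b (19.6 CPM), Crispld2 (124 CPM) and Krt18 (2.76 CPM), number 1 for Elf3 (3.3 CPM) and Serpina3f (4.64 CPM), number 2 for Rasgrf2 (9.02 CPM) and Serpina3c (20.3 CPM), and number 3 for Dusp5 (3.37 CPM).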

How the results depend on the processing

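Of the 195 named genes that were called, 184 kept their call and direction under every alternative other than the covariate, and 151 under all. Adding the nuclear RNA index as covariate, 500 were higher, 459 lower and 959 in all, 101 of them lower by 2-fold and 7 by 4-fold, and 208 and 171 distinct members of the lists were higher and lower. Without untreated libraries 1 and 4 the counts were 1811, 1674 and 3485, with 16 genes lower by 4-fold and 363 list members lower. Scaling by total count gave 1682 higher and 4523 lower. With no filter on low counts, 434 genes were lower by 2-fold, 125 lower by 4-fold and 164 higher by 4-fold, and in a fit of all 16 libraries 55 were lower by 4-fold. Leaving out each library in turn gave 2453 to 3339 genes higher and 2370 to 3254 lower. DESeq2 called 2835 and 2731, limma-voom 2921 and 2936.

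The replicate block gave 3244 higher and 3274 lower. Replicate numbers were not taken as pairs. Same-numbered libraries' deviations correlated at 0.236, -0.101, 0.252 and 0.090 for numbers 1 to 4. In both groups libraries 1, 3 and 4 correlated best with their own number, and library 2 did not. Whether the numbers mark a shared origin was not tested.

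The Stat6 motif within 200 bases before the start was in 4.53% of all windows, 4.16% of genes tested, and 12.7%, 7.6% and 5.38% of genes higher by 4-fold, higher by 2-fold and lower by 2-fold. The spacing of other STAT factors was there in 7.94% of genes higher by 4-fold and 8.06% of genes lower by 2-fold. In the whole window it was in 17.5% and 10.2%. Uncalled genes near 0 changed sign: Col6a3 had a log2 fold change of -0.11 under total count and -0.0188 under upper quartile scaling, and Stat6 had -0.0819 under total count scaling and -0.0541 with the covariate. With single libraries left out, Acta2 ran from -0.0990 to 0.0293 and Col6a3 from -0.0173 to 0.0287.

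Depth limits the genes at or below a few counts per library, such as Arg1 and Chil3, for which no fold is given. The cause of these shifts was not tested.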
